A study of Mus musculus with 8 samples.

Results

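The CELF and ELAVL families are RNA-binding proteins with 10 genes in the mouse, Celf1 to Celf6 and Elavl1 to Elavl4, taken here by symbol. All 10 were among the 17500 genes of the table of retinal RNA, and all 10 passed the filter on low counts that left 16797 genes for testing. Whole retinas of 4 Rbfox2-/- and 4 control C57BL/6J mice, all 6 months of age, were sequenced as poly(A) libraries, 1 library per mouse. The Rbfox2-/- mice (M893, M901, M902 and M909, labelled Rbfox2 KD) carried Rbfox2 fl/fl and 1 copy of a tamoxifen-dependent Cre recombinase driven by a ubiquitous promoter, and Rbfox2 had been reduced with oral tamoxifen in the adult, 4 months before collection. The control mice (M833, M894, M896 and M898) were age-matched Rbfox2 fl/+ heterozygotes. The labels give 4 months of tamoxifen for all 8 mice, controls included, while the methods describe it only for mice that were homozygous and Cre-positive and do not say whether the controls carried Cre. The number of floxed alleles, and Cre or tamoxifen where they differed, cannot be told apart from the group.

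Both families bind the untranslated ends and introns of other mRNAs. CELF proteins prefer GU-rich elements and act in alternative splicing, deadenylation and decay of mRNA, and Celf3 to Celf6 are known mainly from the nervous system. ELAVL (Hu) proteins bind U-rich and AU-rich elements and commonly stabilise the mRNA or favour its translation, and Elavl1 (HuR) is made by nearly all cells whereas Elavl2 (HuB), Elavl3 (HuC) and Elavl4 (HuD) are chiefly neuronal, with HuC and HuD antibodies being a usual stain for retinal ganglion and amacrine cells. The protein targeted in the Rbfox2-/- mice, Rbfox2, is a splicing regulator of another family and binds UGCAUG.

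The mRNAs of the families were searched for this Rbfox element, because it is a sequence through which the targeted protein is known to reach an RNA. The authors write the element as (U)GCAUG, and the shorter GCATG without the 1st T was not searched. In 1 protein-coding GENCODE M21 transcript per gene (GRCm38), read on the sense strand, TGCATG occurred 9 times in 7 of the 10 genes, and Celf2 and Elavl1 held 2 sites each, those of Elavl1 overlapping. Of 14925 transcripts of tested genes, 55.0% held at least 1 site. The density was 0.18 sites per kb in the 10 transcripts and 0.286 per kb in all. The 1st site of each of the 7 genes is shown with its flanks, 5′ to 3′ on the mRNA strand, with the element in capitals.
Celf6: cccagagtgcacTGCATGagcagaagaccc
Celf5: ccatccatgcctTGCATGgcagccagacta
Celf1: aaaaacaagttgTGCATGtttcctgctgtt
Celf2: acctttgaaattTGCATGtgacctcatcta
Elavl1: ctgtccacacatTGCATGcatggtgcccac
Elavl3: ccctccccacccTGCATGggatggcttagg
Elavl4: gaacccactaagTGCATGtagacaggactg

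The sites of Celf6 (chr9:59582333-59582338, + strand) and Celf5 (chr10:81469461-81469466, - strand) lay in coding exons. The sites of Celf1 (chr2:91017455-91017460, + strand), Celf2 (chr2:6545514-6545519, - strand), Elavl1 (chr8:4288755-4288760, - strand), Elavl3 (chr9:22018139-22018144, - strand) and Elavl4 (chr4:110204257-110204262, - strand) lay in 3′ UTRs. A 3′ UTR site was thus found in 5 of the 10 transcripts, and in 33.9% of the 14782 3′ UTRs searched, while the density there was 0.206 sites per kb in the 10 transcripts and 0.363 per kb in all. The transcripts of Celf3, Celf4 and Elavl2 held no TGCATG. A match is a description of the letters in the transcript chosen, and introns were not searched here.

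Each library held from 160630226 to 211283591 counts, and the 10 genes had between 2354 and 71786 counts in a library, far above the 3 counts (0.0144 to 0.0189 CPM) taken as the floor. All 12 pairs of libraries within a group differed by more than sampling noise. The 1st principal component, with 50.03% of the variance, set M901 and M902 apart, and Xist, the RNA of the inactive X chromosome, had 277506 and 275967 counts in these 2 Rbfox2-/- libraries and 312 to 426 in the other 6. Values without these 2 libraries are given beside many of the results that they move. On the scale of CPM, the counts scaled to the TMM-normalized library size, Rbfox2 had 144 (M833), 149.8 (M894), 157 (M896) and 148 CPM (M898) in controls and 53.9, 58.9, 53.6 and 59.4 CPM in M893, M901, M902 and M909, so that the libraries went with their labels. Its log2 fold change was -1.41 (SE 0.0456, edgeR quasi-likelihood test, adjusted p = 5.51e-07), and its relatives Rbfox1 and Rbfox3 had log2 fold changes of -0.04 and 0.04 with overlapping groups.

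The levels of the 10 mRNAs per length spanned a wide range and were led by nervous-system CELF genes. In the FPKM values of the authors, Celf4 had the highest level with 90.4 ± 2.47 FPKM in controls (SD, n = 4), followed by Celf3 with 74.2 ± 6.33, Celf1 with 33.5 ± 1.69, Elavl3 with 32.9 ± 1.65 and Celf2 with 27.4 ± 1.05. Elavl1 had 13.7 ± 0.531 FPKM, Celf5 13.4 ± 1.13, Elavl4 7.39 ± 0.538, Elavl2 6.02 ± 0.798 and Celf6 4.94 ± 0.405. Celf4 lay above 96.8% of the tested genes and Celf6 above 43.2% in this measure. The neighbours Celf1 and Elavl3, Elavl1 and Celf5, and Elavl2 and Celf6 overlapped between control mice and could not be ordered, whereas the other neighbours did not overlap. In Rbfox2-/- retinas the order was the same but for Celf1 and Elavl3, which changed places while overlapping, and the FPKM of Elavl3 and Celf2 also overlapped. With CPM divided by the exonic length of GENCODE in place of the length the authors used, the 3 overlapping pairs changed places and the other 4 genes kept theirs.

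**Figure D1:**
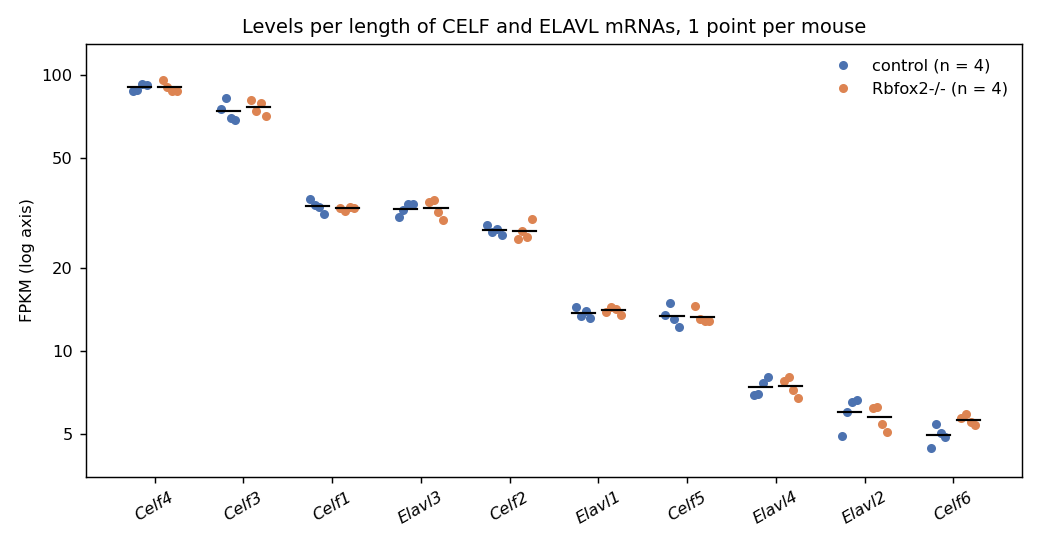
FPKM (log axis) of the 10 CELF and ELAVL genes, 1 point per mouse in blue for 4 controls and orange for 4 Rbfox2-/- mice, with a black line at each group mean. The genes run from Celf4 (90.4 FPKM in controls) to Celf6 (4.94), and of the 10 pairs of groups that of Celf6 comes closest to separation, with 4.43 to 5.41 FPKM in controls and 5.39 to 5.91 in Rbfox2-/- mice.

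Within the CELF family Celf4 and Celf3 made up most of the summed FPKM of control retinas, with 37.1% ± 1.93 and 30.4% ± 1.75 (SD, n = 4). Celf1 held 13.7% ± 0.512, Celf2 11.2% ± 0.431, Celf5 5.49% ± 0.304 and Celf6 2.02% ± 0.152. In the ELAVL family Elavl3 held 54.8% ± 0.544, ubiquitous Elavl1 22.9% ± 1.69, Elavl4 12.3% ± 0.450 and Elavl2 10.005% ± 0.948. The summed level of the CELF family was 244 ± 7.10 FPKM in controls and 247 ± 7.05 in Rbfox2-/- mice, and that of the ELAVL family 60.0 ± 2.59 and 60.1 ± 3.92, differences smaller than the spread between mice. The share of Celf6 ranged from 1.80% to 2.14% in controls and from 2.22% to 2.43% in Rbfox2-/- mice.

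The comparison of Rbfox2-/- with control retinas asked whether the RNA level of these proteins differed when Rbfox2 was reduced. By the edgeR quasi-likelihood test with Benjamini-Hochberg adjustment over 16797 genes, 0 of the 10 genes passed an adjusted p of 0.05, against 11 or 0.0655% of all genes. DESeq2 called 0 of the 10 as well, against 465 or 3.07% of the 15137 genes to which it gave an adjusted p. At an unadjusted p under 0.05, edgeR picked 1 of the 10, Celf6, which was higher in Rbfox2-/- mice, and 13.3% of all genes, 6.42% higher and 6.87% lower. Without M901 and M902 this share was 6.01% of all genes, with 0 of the 10 members, and with 1 surrogate variable it was 6.45%. The groups did not overlap for 1 of the 10, again Celf6, and for 7.03% of all genes, of which 3.64% higher in Rbfox2-/- mice. Of the log2 fold changes, 8 were above 0 and 2 below, against 50.7% above 0 over all genes, with a median of 0.02 for the 10 and 0.0016 for all genes. This split depended on the fit. Without M901 and M902, 6 of the 10 were above 0, and with 1 surrogate variable 5 of the 10 were.

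Celf6 is a nervous-system CELF protein known to bind 3′ UTRs and lower the abundance of its targets. Its level was 12.4, 14.8, 13.8 and 13.3 CPM in M833, M894, M896 and M898, the controls, and 15.7, 16.5, 15.5 and 15.0 CPM in the Rbfox2-/- mice M893, M901, M902 and M909. All 4 Rbfox2-/- values lay above the highest control value, M894, and the nearest Rbfox2-/- value to it was that of M909. The means were 13.6 ± 0.976 and 15.7 ± 0.635 CPM (SD, n = 4 each), a log2 fold change of 0.21 (SE 0.0609) with a 95% interval from 0.07 to 0.35, or 15.6% higher, by edgeR. The adjusted p of this edgeR test was 0.235 and the unadjusted p 0.00645, the 461st lowest of 16797, so that the difference did not pass the test across genes. Over 18 alternative settings of the count analysis the log2 fold change lay between 0.17 and 0.25, and the adjusted p between 0.0562 with DESeq2 and 0.852 without M901 and M902. Without these 2 libraries, which leaves M893 and M909 as the Rbfox2-/- mice, the log2 fold change was 0.17 with an unadjusted edgeR p of 0.0594. With only M901 left out it was 0.18 (edgeR, unadjusted p = 0.0237, adjusted p = 0.481). With only M902 left out it was 0.21 (edgeR, unadjusted p = 0.0142, adjusted p = 0.420). In FPKM the groups overlapped by 1 pair of mice, M894 with 5.41 and M909 with 5.39. The gene lies at chr9:59577917-59607292 on the + strand (GRCm38), and its exons overlapped those of no other gene in GENCODE M21.

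**Figure D2:**
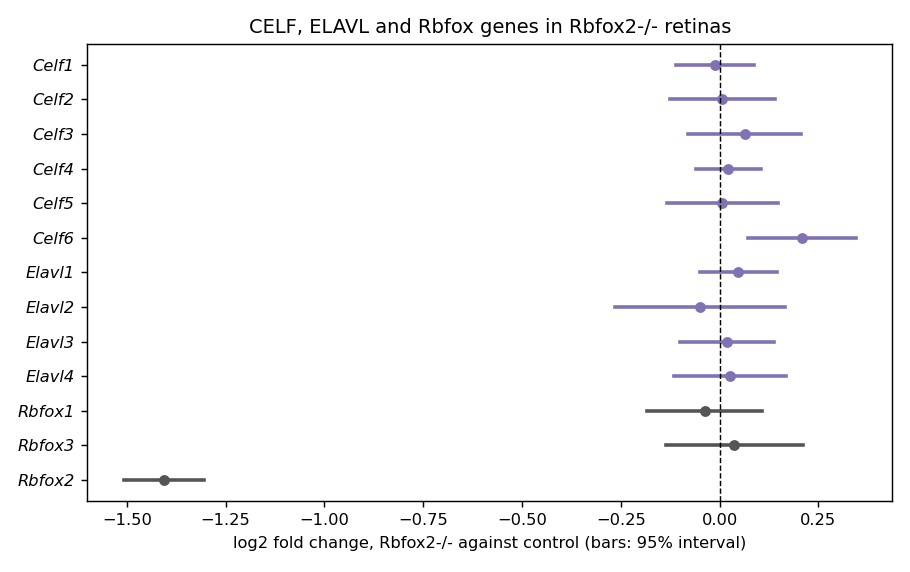
Log2 fold change of Rbfox2-/- against control retinas (edgeR, 4 mice per group) for the 10 CELF and ELAVL genes in purple and the 3 Rbfox genes in grey, with bars for the 95% interval and a dashed line at 0. The interval of Celf6 (0.07 to 0.35) lies above 0, those of the other 9 members include 0, and Rbfox2 stands at -1.41.

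For the other 9 genes the unadjusted p of the edgeR test lay between 0.305 and 0.915 and the adjusted p between 0.676 and 0.976. Their log2 fold changes lay between -0.05 and 0.06, and their 95% intervals between -0.26 and 0.21, or a change between -16.8% and 15.4%. These intervals bound the differences that 4 mice per group leave possible, and they do not show that the levels were equal.

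Among the CELF genes, Celf1, the family's best known factor in the decay of GU-rich mRNAs, had 169 (M833), 157 (M894), 155 (M896) and 145 CPM (M898) in controls and 154, 152, 158 and 156 CPM in M893, M901, M902 and M909. The Rbfox2-/- values all lay inside the range of the controls, and the log2 fold change was -0.01 (95% interval -0.11 to 0.09). Celf2, a splicing regulator of muscle and brain, had 258, 236, 242 and 229 CPM in the controls, in the same order, and 224, 244, 233 and 268 CPM in the Rbfox2-/- mice. Its lowest and highest values were both Rbfox2-/- mice, M893 and M909, and its log2 fold change was 0.01 (95% interval -0.12 to 0.14). In the annotation 7.58% of the exonic bases of Celf2 overlapped the noncoding Gm26565 on the opposite strand, whose reads cannot be told apart without strand.

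Celf3, a neuronal splicing factor, had 193, 205, 174 and 170 CPM in controls and 203, 189.7, 202 and 181 CPM in Rbfox2-/- mice. All the Rbfox2-/- values lay within the control range, and the log2 fold change was 0.06 (95% interval -0.08 to 0.21), the next largest in the CELF family after Celf6. Of its exonic bases 1.35% overlapped Riiad1 on the opposite strand. Celf4, a binder of synaptic mRNAs whose loss in mice is known to cause seizures, had 345, 339, 356 and 349 CPM in controls and 369.9, 355, 345 and 341 CPM in Rbfox2-/- mice. Only M893 lay above the controls, and the log2 fold change of 0.02 had the narrowest interval of the 10 genes (95% interval -0.06 to 0.11). Celf5, a neuronal member for which fewer functions are known, had 60.2, 64.7, 56.6 and 52.8 CPM in controls and 63.3, 58.2, 56.9 and 56.9 CPM in Rbfox2-/- mice. Its groups overlapped and its log2 fold change was 0.01 (95% interval -0.13 to 0.15), and 8.14% of its exonic bases overlapped the antisense gene Gm16105.

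Among the ELAVL genes, Elavl1, the ubiquitous stabiliser of AU-rich mRNAs, had, with mice in the order given for Celf1, 88.0, 79.9, 83.2 and 78.2 CPM in controls and 83.0, 88.4, 87.0 and 82.1 CPM in M893, M901, M902 and M909. M901 was the highest of the 8 mice and M833 the next, and the log2 fold change was 0.05 (95% interval -0.05 to 0.15). Its exons shared 1.97% of their bases with Ccl25 on the opposite strand. Elavl2, the neuronal member also found in germ cells, had 18.5, 22.1, 24.2 and 24.3 CPM in controls and 22.9, 23.7, 20.5 and 19.0 CPM in Rbfox2-/- mice. Its Rbfox2-/- values lay inside the control range, with M833 and M909, 1 mouse of each group, as the lowest pair. Its log2 fold change of -0.05 had the widest interval of the 10 genes (95% interval -0.26 to 0.16).

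Elavl3, a regulator of neuronal splicing and excitability, had 157, 161, 170.1 and 169 CPM in controls and 173, 179, 163 and 151 CPM in Rbfox2-/- mice. The Rbfox2-/- mice spread on both sides of the controls, from M909 below to M901 above them, and the log2 fold change was 0.02 (95% interval -0.10 to 0.14). Gm49318, on the same strand, overlapped 3.72% of the exonic bases of Elavl3, which counting by strand would not separate. Elavl4, known for stabilising mRNAs of neuronal growth such as Gap43, had 28.6, 28.3, 31.1 and 32.3 CPM in controls and 31.6, 33.2, 29.9 and 27.9 CPM in Rbfox2-/- mice. M909 was again the lowest and M901 the highest of the 8, and the log2 fold change was 0.03 (95% interval -0.12 to 0.17). Since whole retinas were sequenced, fewer cells of a type and less RNA per cell cannot be told apart in any of these values.

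The spread between mice of 1 group differed among the members. The coefficient of variation of Elavl2 was 12.1% in controls and 9.89% in Rbfox2-/- mice, wider than 94.6% and 90.4% of the genes with a mean of at least 10 CPM. That of Celf4 was 2.14% and 3.64%, below the medians of 4.58% and 4.79% over those genes. Celf1 had 6.36% in controls and 1.54% in Rbfox2-/- mice, a difference that was not tested.

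**Figure D3:**
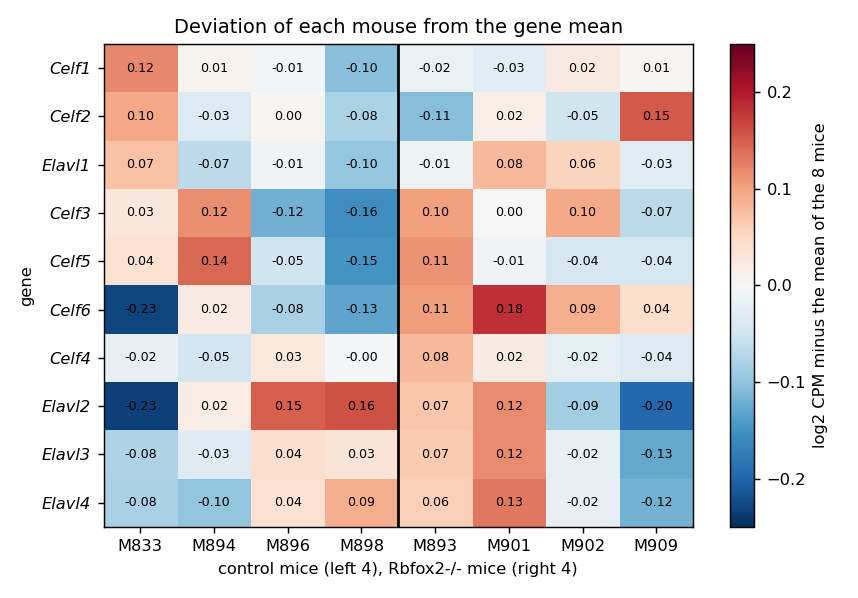
Log2 CPM of each mouse minus the mean of the 8 mice, for the 10 genes in rows and the mice in columns, controls left of the line and Rbfox2-/- mice right of it, on a scale from blue (low) to red (high). Control M833 and Rbfox2-/- M909 are low in Elavl2 (-0.23 and -0.20), Elavl3 and Elavl4 and high in Celf2 (0.10 and 0.15), whereas Celf6 is low in M833 (-0.23) and above 0 in all 4 Rbfox2-/- mice.

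The 3 neuronal ELAVL genes varied together across the mice in both groups. Over the 8 mice the Pearson r of log2 CPM was 0.93 between Elavl3 and Elavl4 (Spearman rho 0.90), 0.85 between Elavl2 and Elavl3 (rho 0.74) and 0.81 between Elavl2 and Elavl4 (rho 0.76). Without the 2 mice farthest from the median of the 1st gene of the pair, these were 0.88, 0.63 and 0.66, and over the 6 mice without M901 and M902 they were 0.90, 0.89 and 0.82. Many genes outside the family shared these patterns. Of 10167 genes with a mean of at least 10 CPM, 188 had an r over 0.9 with Elavl2, 94 with Elavl3 and 46 with Elavl4 over the 8 mice. Ubiquitous Elavl1 had an r of -0.36, 0.12 and 0.08 with Elavl2, Elavl3 and Elavl4 over the 8 mice, and of -0.63, -0.29 and -0.32 without M901 and M902. These pooled values hid opposite signs in the groups, with -0.80, -0.61 and -0.48 over the 4 controls and 0.51, 0.61 and 0.64 over the 4 Rbfox2-/- mice, a difference that was not tested. In the CELF family Celf3 and Celf5 stood out with an r of 0.82 (rho 0.86), which was 0.66 without the 2 farthest mice and 0.98 without M901 and M902.

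Celf1 and Elavl2 ran in opposite directions, with an r of -0.79 (rho -0.86) over 8 mice. It was -0.67 without the 2 mice farthest from the median of Celf1 and -0.78 without M901 and M902. The r of -0.70 between Elavl2 and Celf2 rested on the 2 mice farthest from the median of Celf2, since it was 0.19 without them. In all, 45 pairs were computed, of which 4 had an r over 0.8 and 20 an r below 0. These pairs were picked out after the values were seen, the 8 mice share their dissection and RNA composition across all pairs, and the values are descriptions.

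**Figure D4:**
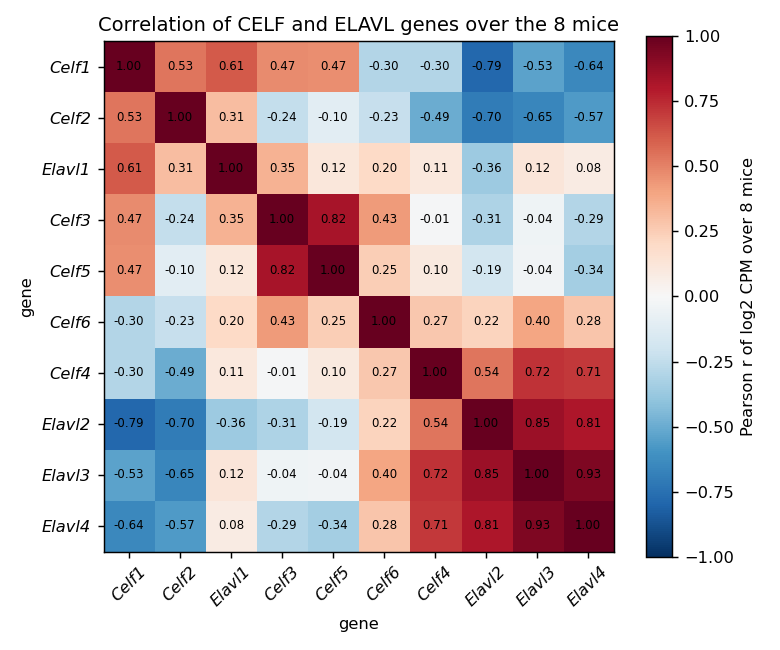
Pearson r of log2 CPM over the 8 mice for each pair of the 10 genes, red for positive and blue for negative values. Elavl2, Elavl3 and Elavl4 form a red block (0.81 to 0.93), Celf3 and Celf5 a pair (0.82), and Celf1 and Celf2 are blue against the neuronal ELAVL genes.

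Of 10167 genes with a mean of at least 10 CPM, the gene nearest to Elavl2 in its pattern over the 8 mice was Rbfox1, a relative of the targeted gene, with an r of 0.99. Rbfox1 had 78.1, 85.4, 93.0 and 92.8 CPM in M833, M894, M896 and M898 and 89.6, 90.1, 82.2 and 78.5 CPM in M893, M901, M902 and M909, the same mice being low as for Elavl2. The nearest genes were Scrt2 for Elavl3 (r 0.99), Atp6v1c1 for Elavl4 (0.98) and Synj1 for Elavl1 (0.98). For the CELF genes they were Fam160b1 for Celf1 (0.97), Rora for Celf2 (0.98), Znrf1 for Celf3 (0.97), Cxxc5 for Celf4 (0.98), Mtss1 for Celf5 (0.95) and Tmem151b for Celf6 (0.97). Tmem151b had 28.7 CPM in controls and 37.8 CPM in Rbfox2-/- mice on average, a log2 fold change of 0.40 that, like that of Celf6, missed the threshold (edgeR, adjusted p = 0.209). Among so many genes some come close to any pattern of 8 values, and these names are the result of a ranking only.

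Marker genes of retinal cells and a list of other tissue were set beside these patterns. The ganglion cell list (13 genes such as Rbpms, Pou4f1 and the neurofilaments) had a mean log2 CPM of -0.40 relative to the 8 mice in M833, 0.18, 0.18 and 0.27 in the other controls M894, M896 and M898, and 0.16, -0.06, -0.21 and -0.13 in M893, M901, M902 and M909. Over the 8 mice this mean had an r of 0.84 with Elavl2, 0.49 with Elavl3 and 0.43 with Elavl4. With Celf1 and Elavl1 it was -0.80 and -0.78. Without M901 and M902 these were 0.94, 0.74 and 0.65, and -0.86 and -0.82. The ganglion cell list includes Penk, with 86.3 ± 36.6 CPM in controls and 36.8 ± 34.0 CPM in Rbfox2-/- mice (SD). The log2 fold change of Penk was -1.23 (edgeR, adjusted p = 0.479), whereas the median of the list was 0.0068. How far Penk alone moved the mean of the list and its r values was not tested. The amacrine cell list had an r of 0.25, 0.56 and 0.55 with Elavl2, Elavl3 and Elavl4 over the 8 mice. Values as far from 0 occurred outside the markers. An example was -0.91 between Elavl2 and the list, described below, of other proteins that bind AU-rich or GU-rich elements. The summed level of the ganglion cell list ranged from 974 to 1559 CPM in controls and from 1174 to 1450 CPM in Rbfox2-/- mice. The other-tissue list (12 of 14 genes tested) held genes of pigment and ciliary epithelium, lens, vessels and microglia, and its blood genes Hba-a1 and Hbb-bs were not tested. It does not separate tissue carried along in dissection from vessels and microglia of the retina itself. Over the 8 mice this list had an r of -0.87 with Elavl1, 0.31 with Elavl2 and -0.36 with Celf1. Its summed level ranged from 85.1 to 167 CPM in controls and from 72.3 to 154 CPM in Rbfox2-/- mice. Without M901 and M902 its r was -0.83 with Elavl1, 0.87 with Elavl2, 0.74 with Elavl3, 0.72 with Elavl4, -0.87 with Celf1 and -0.89 with Celf2. These were about as far from 0 as the values of the ganglion cell list, so that without M901 and M902 the 2 lists cannot be told apart. Over the 8 mice the 2 lists differed in their r with Elavl2 and Celf1. The mean of the other-tissue list was lowest in M901 (-0.77) and M902 (-0.68). The part of cell composition or of tissue carried along in the levels of the CELF and ELAVL genes was not tested.

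Between the groups, the marker lists held 1 gene that passed the test, Calb1 of the horizontal cell list (log2 fold change -0.40, edgeR, adjusted p = 0.00341). The paper describes calbindin as a marker of amacrine cells too. None of the ganglion cell, amacrine cell, rod, cone, bipolar cell, Muller glia and other-tissue genes passed. Without M901 and M902, 0 marker genes passed, Calb1 included, in a fit with only M893 and M909 as Rbfox2-/- mice. With only M901 or only M902 left out, 1 horizontal cell gene passed in each fit. At an unadjusted p under 0.05 stood 1 of 13 ganglion cell genes, 3 of 16 amacrine cell, 2 of 8 horizontal cell, 4 of 9 rod, 4 of 8 cone, 4 of 10 bipolar cell, 2 of 8 Muller glia and 3 of 12 other-tissue genes, beside the 13.3% of all genes. The 1 ganglion cell gene was Isl1, which is also 1 of the 4 bipolar cell genes. The 2 horizontal cell genes went in opposite directions, since Lhx1 had a log2 fold change of 0.18. Without M901 and M902 the share of all genes was 6.01%, and the counts of the lists are not given for that fit. The median log2 fold change was 0.09 for rods and 0.15 for cones, and -0.09 for bipolar cells, -0.06 for horizontal cells and -0.14 for the other-tissue genes. With 1 surrogate variable the median was 0.04 for rods, 0.11 for cones and 0.02 for the other-tissue genes. Without M901 and M902 it was 0.06 for rods, 0.11 for cones and -0.03 for the other-tissue genes. DESeq2, which called 3.07% of all genes, called 3 rod, 2 cone, 2 bipolar cell, 1 horizontal cell, 1 ganglion cell, 1 amacrine cell and 1 Muller glia gene, with Isl1 counted in both the ganglion and the bipolar cell list.

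Partners of the 2 families were described with the same fit. Of 16 other proteins that bind AU-rich or GU-rich elements, among them Zfp36, Khsrp and Tia1, 0 passed an adjusted p of 0.05 with edgeR (0.0655% of all genes) and 1 with DESeq2 (3.07%), and 2 had an unadjusted p under 0.05 (13.3%). These were Ybx1, a Y-box protein that packages mRNA, with 401 CPM in controls and 440.5 CPM in Rbfox2-/- mice (log2 fold change 0.14, adjusted p = 0.209), whose groups did not overlap, and Hnrnpd (AUF1), a decay factor of AU-rich mRNAs, with 241 and 223 CPM (-0.11, adjusted p = 0.353). The median log2 fold change of the list was 0.0075.

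Of 25 genes of deadenylation, decapping and 5′ decay, 0 passed an adjusted p of 0.05 with edgeR or DESeq2, and 2 had an unadjusted p under 0.05 beside the 13.3% of all genes, namely Dcp1b, a decapping cofactor (0.19, adjusted p = 0.234) whose groups did not overlap, and Parn, a poly(A) ribonuclease (-0.10, adjusted p = 0.332). The median of these 25 was 0.02, and -0.03 with 1 surrogate variable. Of 16 mRNAs long known to be bound by ELAVL or CELF proteins, 0 passed an adjusted p of 0.05 with edgeR or DESeq2, and 0 had an unadjusted p under 0.05, again beside 13.3%. The lowest p was that of Neurod1, a transcription factor of retinal neurons (log2 fold change 0.17, adjusted p = 0.397). Gap43, a growth cone protein and a classic target of Elavl4, had 28.02 CPM in controls and 29.0 CPM in Rbfox2-/- mice (0.05, adjusted p = 0.817). The median of the 16 was 0.04.

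**Figure D5:**
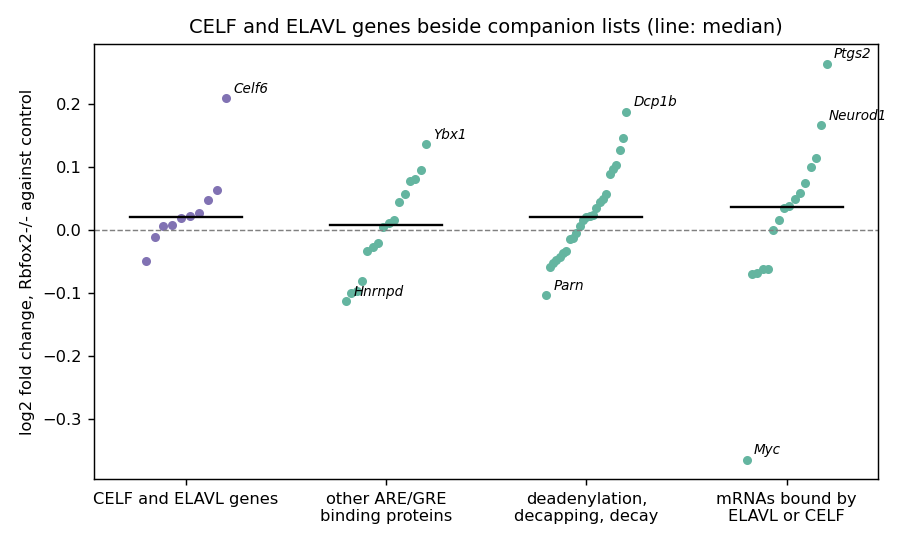
Log2 fold change of Rbfox2-/- against control retinas (edgeR) for the 10 CELF and ELAVL genes in purple and, in green, 16 other element-binding proteins, 25 genes of mRNA decay and 16 bound mRNAs, 1 point per gene in order of value, with a line at each median. The medians are 0.02, 0.0075, 0.02 and 0.04, and the lowest point is Myc (-0.36), which had 0.844 CPM in controls and 0.654 CPM in Rbfox2-/- mice and did not pass the test.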

How the data were processed

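Retinal poly(A) libraries of 4 Rbfox2-/- and 4 control mice were grouped by the genotype in the labels. The authors aligned reads to mm10 with STAR, kept uniquely mapped reads and deposited counts per gene made with HTSeq, without normalization. CASAVA 1.8.2 and edgeR stand in the submitters' processing notes. RefSeq and Ensembl annotations are both named, and the strand setting is not given in the sources used here. The deposited FPKM values are these counts divided by the gene length the authors used and the library total, and served for levels between genes. The table lists genes with 5 or more counts in 4 or more mice. A further 16 columns of per-mouse values (counts the authors normalized, and each mouse against the other group) and the authors' fold changes, p-values and FDR were not used.

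Counts were filtered with filterByExpr, TMM-scaled and compared with the quasi-likelihood test of edgeR 4.0.16 (R 4.3.3), without covariates, and p-values were Benjamini-Hochberg adjusted over 16797 genes. Replicates are separate mice. The procedure was tested on simulated counts. The alternatives were DESeq2 1.42.0, limma 3.58.1 (voom and trend), the likelihood ratio test, RLE and upper-quartile scaling, 2 count filters, 1 surrogate variable (sva 3.50.0), and leaving out mice. Positions and transcripts are those of GENCODE M21, 1 protein-coding transcript per gene. Libraries held 160630226 to 211283591 counts, and the number of mice limits the precision more than this depth. The floor of 3 counts covers counting error only.

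The genes and lists were chosen with earlier results of these data known. The genes named are the 10 members, the Rbfox genes, Xist, of each protein and mRNA list the members past the threshold or else those with the lowest p, bound mRNAs where described, and the gene nearest to each member in r. Some items are not reported here.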

Additional observations from a re-analysis of the deposited data

How the results depend on the processing

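No CELF or ELAVL gene passed an adjusted p of 0.05 with edgeR or under any of the 18 alternatives, DESeq2 among them. The log2 fold change of Celf6 stayed above 0 in all of them, with an unadjusted p under 0.05 in 17, the exception being the fit without M901 and M902 (0 members under 0.05). Directions reversed only among values close to 0. With 1 surrogate variable the log2 fold changes were -0.025 for Elavl1, -0.012 for Elavl3 and -0.00039 for Elavl4, and without M901 and M902 they were -0.023 for Elavl3 and -0.019 for Elavl4. With 1 mouse left out they ranged from -0.046 to 0.026 for Celf1, -0.044 to 0.043 for Celf2, -0.0012 to 0.038 for Celf4, -0.039 to 0.058 for Celf5, -0.13 to 0.0047 for Elavl2, -0.019 to 0.064 for Elavl3 and -0.015 to 0.069 for Elavl4. Celf3 and Celf6 kept their direction throughout. The order of levels per length kept 4 of 10 places with GENCODE lengths, which differ from those the authors used.

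Over all genes, the number past an adjusted p of 0.05 was 11 with edgeR's quasi-likelihood test, 465 with DESeq2, 164 with the likelihood ratio test, 5 with 1 surrogate variable and 1 without M901 and M902. It ranged from 5 to 35 with 1 mouse left out, the lowest without M893, M901, M909 or M896, the highest without M833, and 19 without M894 and 6 without M898. Of the genes of all lists together, 1 passed with the quasi-likelihood test, 11 with DESeq2, 2 with the likelihood ratio test, 0 without M901 and M902, and 1 to 2 with 1 mouse left out. At an unadjusted p under 0.05 stood 2233 genes with the quasi-likelihood test, 1083 with 1 surrogate variable, 1027 without M901 and M902, and 1491 to 2992 with 1 mouse left out. The fit without M901 and M902 also had fewer Rbfox2-/- mice, and the cause of these changes was not tested. No paired analysis was possible because the labels give mouse numbers and no replicate number that the groups share. In groups of 4 the intervals leave differences between -16.8% and 15.4% possible for the 9 members other than Celf6, and depth is not the limit, since each member had at least 2354 counts in every library.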
